A study of Homo sapiens with 30 samples.

Results

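PC3 cells, a human prostate cancer line established from a bone metastasis, were treated for 48 h with SGI-1776-VHL-02 at 3750 nM, a PROTAC directed at the PIM kinases, and compared with cells given DMSO for the same time. Each group held 6 poly(A) RNA-seq libraries, 3 labelled Rep 1 and 3 labelled Rep 2, so the comparison rested on 12 of the 30 libraries of the series. The members are the 6 libraries of this treatment and the 6 DMSO libraries, chosen by their labels. The other groups had 6 libraries each in the same arrangement. They were SGI-1776-VHL-02 at 1500 nM and SGI-1776, the PIM kinase inhibitor, at 1500 and 3750 nM. The study asked how inhibiting the PIM kinases and degrading them change the transcriptome. All groups share the PC3 line and the 48 h time point. The labels do not tell if the 3 libraries of a Rep were grown apart, so a p-value here reflects how libraries scatter, and some of that scatter may be technical.

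PIM1, PIM2 and PIM3 are constitutively active serine/threonine kinases that promote survival and cap-dependent translation and lie downstream of JAK/STAT signalling. A PROTAC joins a ligand of its target to a ligand of a ubiquitin ligase, here VHL by the compound's name, so that the target is ubiquitylated and sent to the proteasome. The integrated stress response is a signalling route in which kinases of the EIF2AK family phosphorylate the initiation factor eIF2, general translation falls and translation of the transcription factor ATF4 rises. ATF4 with C/EBP partners then binds composite elements in genes of amino acid synthesis, amino acid transport and tRNA charging. Genes of mitosis are a second class with a shared promoter element, the cell cycle homology region, through which the DREAM and MuvB complexes act.

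Promoters of 4 genes that rose and 2 that fell are shown because each holds an element known for its class of genes. The sequences are RefSeq promoter sequences of build GRCh38.p14, each the 250 bases before the annotated start, written 5′ to 3′ on the gene's strand. Capitals mark TGATGNAA, the composite element bound by ATF4 and C/EBP proteins, or its reverse complement in CHAC1, AARS and IARS.
CHAC1 (chr15:40953221-40953470, plus strand): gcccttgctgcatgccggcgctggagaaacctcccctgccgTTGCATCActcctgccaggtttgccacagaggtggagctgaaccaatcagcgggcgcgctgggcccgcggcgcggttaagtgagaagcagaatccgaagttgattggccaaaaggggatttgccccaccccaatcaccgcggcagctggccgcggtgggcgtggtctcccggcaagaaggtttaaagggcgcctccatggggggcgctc
ASNS (chr7:97872409-97872658, minus strand): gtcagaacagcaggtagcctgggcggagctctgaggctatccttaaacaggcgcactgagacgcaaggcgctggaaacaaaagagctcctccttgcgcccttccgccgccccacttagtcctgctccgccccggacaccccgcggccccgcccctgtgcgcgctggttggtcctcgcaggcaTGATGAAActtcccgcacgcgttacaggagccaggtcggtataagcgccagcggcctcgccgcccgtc
AARS (chr16:70289507-70289756, minus strand): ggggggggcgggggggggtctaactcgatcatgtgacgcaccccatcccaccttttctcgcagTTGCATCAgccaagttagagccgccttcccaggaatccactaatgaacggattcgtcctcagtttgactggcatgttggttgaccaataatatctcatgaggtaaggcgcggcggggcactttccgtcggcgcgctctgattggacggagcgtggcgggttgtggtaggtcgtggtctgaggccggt
IARS (chr9:92293698-92293947, minus strand): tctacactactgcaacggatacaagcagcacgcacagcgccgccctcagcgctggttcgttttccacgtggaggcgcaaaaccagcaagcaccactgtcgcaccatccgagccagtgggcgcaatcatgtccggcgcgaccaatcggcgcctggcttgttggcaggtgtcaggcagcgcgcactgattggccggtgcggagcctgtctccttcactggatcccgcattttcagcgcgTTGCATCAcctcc

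The element starts 209 bases before the CHAC1 start, 68 before that of ASNS, 187 before that of AARS and 13 before that of IARS. Searched on both strands of the 250 bases, TGATGNAA lay in 9 of 52 promoters of genes called at least 2-fold higher, or 17.3%. It lay in 37 of 1526 promoters of all genes called higher, or 2.42%, in 18 of 1428 of those called lower, or 1.26%, and in 178 of 12029 promoters of genes tested, or 1.48%. Over all 27305 promoters in the table the share was 3.19%. The 9 were CHAC1, ASNS, S100P, AGT, FGL2, KRT34, PCOTH, PRSS1 and PRSS2. Of the 17499 genes tested, 12036 matched a promoter, 12029 of them distinct. Among the promoters of ADM2, CBS, DDIT4, ATF4, DDIT3, CEBPG and CTH, which also rose, none held these letters in the window, and of the 108 promoters of leading and stress list genes 17 did. A match is a run of letters, not a site shown to be bound.

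Genes of mitosis were searched for TTTGAA, the core of the cell cycle homology region, on both strands. It lay in 15 of 30 mitotic promoters, or 50.0%, in 1 of 29 promoters of G1/S and replication genes, or 3.45%, in 4 of 15 promoters of amino acid transporters, or 26.7%, in 145 of 1428 of all genes called lower, or 10.2%, and in 1027 of the 12029 promoters of genes tested, or 8.54%. In PLK1, a kinase of mitotic entry and spindle function, and CCNB2, a mitotic cyclin, the letters stand 29 bases before the start. Among the promoters of KIF20A, CENPE, KIF2C and CCNB1, which also fell, none held these letters in the window. Capitals mark TTTGAA or its reverse complement.
PLK1 (chr16:23678639-23678888, plus strand): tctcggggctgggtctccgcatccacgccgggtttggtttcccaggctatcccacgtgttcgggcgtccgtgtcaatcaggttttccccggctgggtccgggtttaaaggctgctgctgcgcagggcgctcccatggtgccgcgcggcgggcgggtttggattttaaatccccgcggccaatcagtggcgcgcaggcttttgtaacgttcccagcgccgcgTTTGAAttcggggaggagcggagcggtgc
CCNB2 (chr15:59104896-59105145, plus strand): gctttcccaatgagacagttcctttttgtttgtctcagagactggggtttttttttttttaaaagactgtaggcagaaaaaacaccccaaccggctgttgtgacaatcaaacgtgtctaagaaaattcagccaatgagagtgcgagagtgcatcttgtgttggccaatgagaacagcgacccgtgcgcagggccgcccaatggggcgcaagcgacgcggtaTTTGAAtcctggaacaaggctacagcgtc

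The 6 libraries of SGI-1776-VHL-02 at 3750 nM held 23506366 to 33472101 counted reads and the 6 DMSO libraries 25185777 to 30334792. Counts of mitochondrially encoded genes made up 1.14% to 2.89% of reads in the treated libraries. In DMSO they made up 2.70% to 2.83% in Rep 1 and 0.368%, 1.66% and 1.46% in Rep 2. The line's defining epithelial genes were present, with KRT8 at 492 and 548 CPM, KRT18 at 286 and 314 CPM and EPCAM at 102 and 101 CPM in treated and DMSO cells. Of the genes that PC3 cells are known to lack or barely express, KLK3 and KLK2 were under 0.05 CPM, whereas TMPRSS2 stood at 35.1 and 31.7 CPM in treated and DMSO cells. All 11 leukocyte markers were under 1 CPM in both groups, with a summed level of 0.87 to 2.25 CPM in treated and 0.91 to 1.65 CPM in DMSO libraries. The 7 fibroblast markers summed to 41.4 to 62.2 CPM in treated and 49.1 to 77.8 CPM in DMSO libraries, nearly all from COL1A1 and COL3A1, while DCN was at 0.014 and 0.012 CPM. The 5 endothelial markers summed to 10.1 to 13.3 and 8.27 to 11.9 CPM in the same order. In bulk RNA, fewer cells of a type and less RNA per cell cannot be told apart.

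The treatment changed 3807 of 17499 genes tested, or 21.8%, at an adjusted p under 0.05. Of these, 2011 (11.5%) were higher and 1796 (10.3%) lower, and 77 (0.44%) rose by a factor of 2 or more, while 44 (0.251%) fell by as much. Most changes were small, and the median log2 fold change over all genes tested was 0.0025. With Rep as a block, 5274 genes (30.1%) were called, 2810 (16.1%) higher and 2464 (14.1%) lower. Taken apart, the response in Rep 1 comprised 3427 genes (19.6%) and that in Rep 2 comprised 3512 (20.1%). The sign was the same in both Reps for 3805 of the 3807 genes. These genes were called from both Reps together, which in itself favours a shared sign. After the counts of the 3 libraries sharing a group and Rep were added into 1 sample, 410 genes (2.34%) were called without Rep as a block and 4008 (22.9%) with it. The CPM ranges of the 2 groups did not overlap for 2069 of the 3807 called genes and for 2137 of all 17499, or 12.2%. Protein-coding genes made up most calls, with 1806 higher and 1688 lower of 13624 tested, while 62 lincRNA genes were higher and 35 lower of 929.

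The targets of the compound were described first. PIM1 had 36.8, 41.2 and 45.1 CPM in treated cells (lowest, median and highest of 6 libraries), against 28.8, 31.1 and 31.9 CPM in DMSO cells. The ranges did not overlap and PIM1 rose 1.34-fold (log2 fold change 0.42, SE 0.05, adjusted p = 2.3e-08), with log2 fold changes of 0.54 in Rep 1 and 0.30 in Rep 2. PIM2 had 24.5, 26.1 and 29.3 CPM in treated and 26.5, 27.8 and 29.5 CPM in DMSO cells, and PIM3 had 49.8, 50.8 and 52.8 CPM in treated and 47.6, 52.9 and 57.0 CPM in DMSO cells. Neither passed the test: the 95% interval of the log2 fold change ran from -0.17 to 0.05 for PIM2 and from -0.15 to 0.06 for PIM3. Per length, the mean levels in treated and DMSO cells were 13.8 and 10.3 RPKM for PIM1, 9.66 and 10.1 RPKM for PIM2 and 20.7 and 21.4 RPKM for PIM3. These are mRNA levels, and kinase protein was not analysed here.

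Among the 17 tested genes of PIM kinases and JAK/STAT signalling, 6 rose and 2 fell, with a median log2 fold change of 0.06. Of all genes tested, 11.5% rose and 10.3% fell. With Rep as a block these shares were 16.1% and 14.1%, and in the summed counts with that block 12.4% and 10.5%. In the summed counts without that block they were 1.43% and 0.909%. The counts of this treatment against DMSO in each list below stand beside these shares. SOCS2, a feedback inhibitor of cytokine receptors, had 16.4, 19.9 and 22.2 CPM in treated and 10.2, 12.2 and 14.2 CPM in DMSO cells (log2 fold change 0.68, SE 0.08, adjusted p = 4.9e-08). STAT6, the transcription factor of interleukin-4 signalling, rose by 0.38 on the log2 scale and its receptor chain IL4R by 0.32. SOCS1, another feedback inhibitor, fell with a log2 fold change of -0.54. STAT3, STAT5A and STAT5B had no counts in the table and were not tested.

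The ligase recruited by the compound changed little at the mRNA level. VHL, the substrate receptor of the ligase, had 111, 116 and 121 CPM in treated and 96.0, 105 and 109.9 CPM in DMSO cells. Its ranges did not overlap and it rose 1.12-fold (log2 fold change 0.16, SE 0.04, adjusted p = 0.0028). ARNT, the partner of the hypoxia-inducible factors, rose 1.11-fold (log2 fold change 0.15, SE 0.04, adjusted p = 0.0046), and the other 11 of 13 tested ligase subunits and HIF regulators did not pass the test; with Rep as a block 2 of them fell, and none in the summed counts with that block. HIF1A, the oxygen-regulated subunit that VHL ubiquitylates, had 585, 611 and 697 CPM in treated and 575, 628 and 721 CPM in DMSO cells, and its log2 fold change had a 95% interval of -0.17 to 0.14. Of 28 HIF target genes, 10 rose and 1 fell, with a median of 0.09. With Rep as a block 13 rose and 2 fell, and in the summed counts with that block 12 rose and 1 fell. VEGFA, the angiogenic growth factor, had 123, 149 and 169.9 CPM in treated and 67.7, 86.6 and 97.8 CPM in DMSO cells (log2 fold change 0.77, SE 0.12, adjusted p = 2.3e-05). NDRG1 rose by 0.38 and BNIP3L, a mitophagy receptor, by 0.29 on the log2 scale. LDHA, the glycolytic target lactate dehydrogenase, was at -0.12 and did not pass the test without Rep as a block (adjusted p = 0.12), and passed with it (adjusted p = 0.001), though not in the summed counts with that block (adjusted p = 0.059). ANGPTL4, a lipase inhibitor, fell with -0.32, with overlapping ranges. Its value was -0.28 without the third DMSO library of Rep 1 and -0.26 without the first treated library of Rep 1, and neither passed the test.

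**Figure D1:**
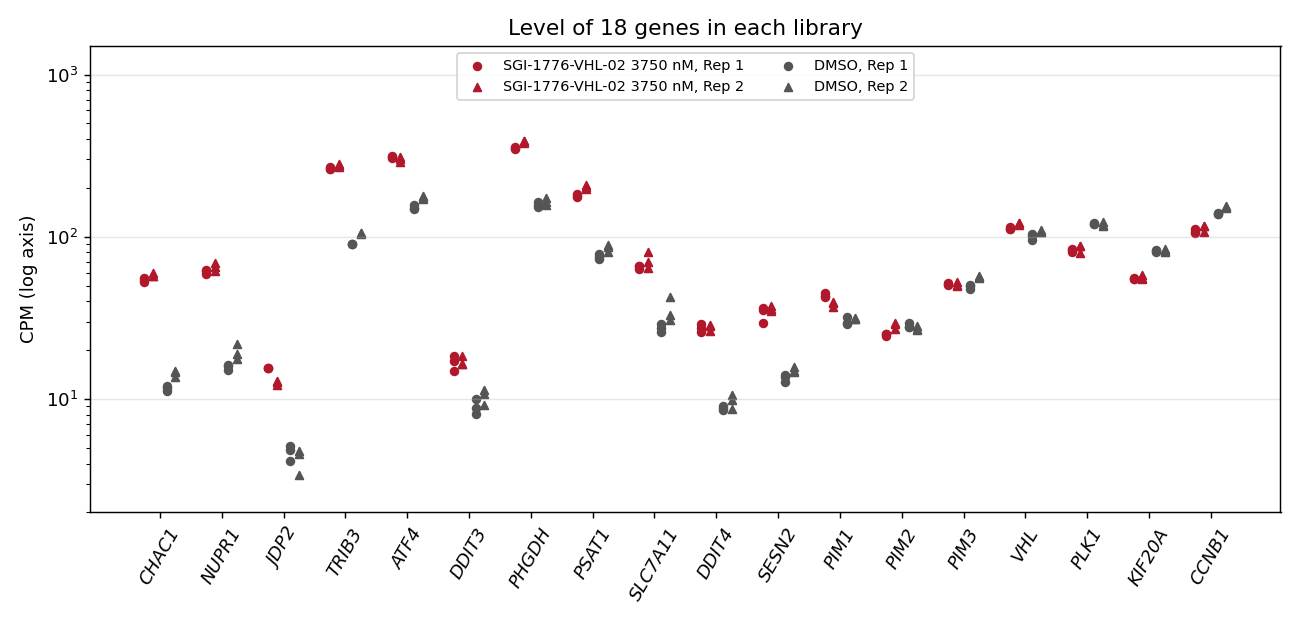
CPM on a log axis of 18 named genes in each of the 6 libraries of SGI-1776-VHL-02 at 3750 nM (red, left of each pair) and of DMSO (grey, right), with Rep 1 as circles and Rep 2 as triangles. CHAC1 lies between 52.95 and 59.6 CPM in treated and between 11.2 and 14.9 CPM in DMSO libraries, while the points of PIM2 and PIM3 overlap between the groups.

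The plot of CPM by library sets the stress genes beside the targets and the mitotic genes. In NUPR1, TRIB3 and PHGDH each treated library lay above each DMSO library, in both Reps. In PLK1, KIF20A and CCNB1 each lay below. The 3 treated and 3 DMSO libraries of each Rep kept this order in all 6 genes.

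Regulators of the integrated stress response rose together. Of 16 tested, 10 rose and 1 fell, with a median log2 fold change of 0.45, against 11.5% of all genes higher and 10.3% lower. CHAC1, a glutathione-degrading enzyme and a classical ATF4 and CHOP target, showed the highest log2 fold change among the named genes, with 52.95, 56.1 and 59.6 CPM in treated and 11.2, 12.9 and 14.9 CPM in DMSO cells (log2 fold change 2.10, SE 0.16, adjusted p = 8.8e-12). ATF4 itself had 290.0, 308 and 314 CPM in treated and 149, 164 and 177 CPM in DMSO cells, without overlap, and rose 1.86-fold (log2 fold change 0.90, SE 0.06, adjusted p = 9.7e-13). NUPR1, a small stress-induced chromatin protein, had 58.8, 61.8 and 69.2 CPM in treated and 15.1, 16.9 and 21.8 CPM in DMSO cells (log2 fold change 1.84, SE 0.11, adjusted p = 7.1e-14). JDP2, a repressor of the AP-1 family, rose 3.13-fold and TRIB3, a pseudokinase that restrains ATF4 signalling, 2.76-fold.

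DDIT3, which encodes the transcription factor CHOP, had 14.9, 16.8 and 18.4 CPM in treated and 8.14, 9.57 and 11.3 CPM in DMSO cells (log2 fold change 0.81, SE 0.09, adjusted p = 2.5e-08). Of its exonic bases, 39.6% lie in exons of MARS on the opposite strand, and the sources used here do not say whether counting used strand, so its value is uncertain. CEBPG and CEBPB, binding partners of ATF4, rose by 0.73 and 0.58 on the log2 scale. PPP1R15A, the phosphatase subunit that reverses eIF2 phosphorylation, rose by 0.53 and the kinase EIF2AK3 (PERK) by 0.38. ATF3, another stress-induced factor of the family, was at 0.33 and did not pass the test without Rep as a block (adjusted p = 0.098), and passed with it (adjusted p = 3.2e-04). ATF5, a related factor, fell, with 78.2, 84.2 and 87.7 CPM in treated and 86.8, 93.3 and 101 CPM in DMSO cells (log2 fold change -0.17, SE 0.06, adjusted p = 0.035), and its ranges overlapped. It was at -0.14 without the first DMSO library of Rep 2 and at -0.16 without the second or the third treated library of Rep 1, and then did not pass. ATF4, CEBPG and PPP1R15A were among the 45 genes, or 0.257% of those tested, whose response differed between Reps. ATF4 was at 1.03 in Rep 1 and 0.78 in Rep 2, CEBPG at 0.87 and 0.61, and PPP1R15A at 0.68 and 0.40.

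Enzymes that make serine, asparagine and cysteine were higher, whereas several others of the same metabolism were lower. Of 19 genes of amino acid synthesis and one-carbon metabolism, 13 rose and 4 fell, with a median of 0.46. PHGDH, the first enzyme of serine synthesis, had 346, 369 and 390.1 CPM in treated and 153, 160.1 and 173 CPM in DMSO cells (log2 fold change 1.20, SE 0.06, adjusted p = 1.0e-15). PSAT1, the aminotransferase that follows, had 176, 189 and 209 CPM in treated and 72.4, 79.3 and 88.9 CPM in DMSO cells (log2 fold change 1.25, SE 0.07, adjusted p = 4.3e-14), and PSPH, the last step, rose by 0.58. In both genes no treated library reached the DMSO range. The mitochondrial one-carbon enzymes MTHFD2, SHMT2 and ALDH1L2 rose by 0.84, 0.68 and 0.60, while the cytosolic enzyme SHMT1 fell with -0.20. ALDH18A1, the first enzyme of proline synthesis from glutamate, fell with -0.26, whereas PYCR1, a later step of that pathway, rose by 0.46.

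ASNS, asparagine synthetase, had 3.73, 4.63 and 6.10 CPM in treated and 1.18, 1.80 and 2.13 CPM in DMSO cells (log2 fold change 1.47, SE 0.18, adjusted p = 2.1e-07). Its level is uncertain because 44.6% of its exonic bases also lie in exons of AC079781.5 on the same strand. CBS, which forms cystathionine, had 8.95, 12.7 and 18.4 CPM in treated and 2.01, 3.71 and 5.98 CPM in DMSO cells (log2 fold change 1.73, SE 0.25, adjusted p = 3.9e-06). It has a near-identical copy, CBSL, with which the counting could split its reads. CTH, the next enzyme of transsulfuration, has no such copy named here and rose by 0.71.

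Of 18 amino acid transporters tested, 10 rose and 2 fell, with a median of 0.33. SLC7A5, the large neutral amino acid exchanger, had 444, 452 and 467 CPM in treated and 204, 223 and 236 CPM in DMSO cells (log2 fold change 1.03, SE 0.04, adjusted p = 1.6e-17). SLC3A2, its heavy chain, had 281, 294 and 301 CPM in treated and 138, 145 and 158 CPM in DMSO cells (log2 fold change 1.01, SE 0.04, adjusted p = 1.6e-17). SLC7A11, the cystine importer that shares this heavy chain, had 63.4, 66.1 and 81.0 CPM in treated and 25.9, 29.8 and 42.6 CPM in DMSO cells (log2 fold change 1.12, SE 0.13, adjusted p = 1.2e-07). The folds were 2.04, 2.01 and 2.18, and the groups did not overlap in any of the 3. SLC1A4 and SLC1A5, carriers of neutral amino acids, rose by 0.85 and 0.80 and SLC7A1, the arginine and lysine carrier, by 0.66. SLC43A2, a facilitator of large neutral amino acids, fell, with 12.3, 13.8 and 14.6 CPM in treated and 17.9, 19.4 and 20.4 CPM in DMSO cells (log2 fold change -0.50, SE 0.05, adjusted p = 4.6e-09). Of 13 genes of glutathione synthesis and breakdown, 6 rose and 1 fell, and GCLC, the rate-limiting subunit of synthesis, rose by 0.26. The 1 that fell was CHAC2, the relative of CHAC1, at -0.23. It did not pass without the first or the third DMSO library of Rep 1, the first of Rep 2, the third treated library of Rep 1, or the first or second of Rep 2, at -0.24 to -0.19.

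The 2 sets of aminoacyl-tRNA synthetases separated. Of 20 cytosolic synthetases, which charge tRNAs for translation in the cytosol, 12 rose and 5 fell, with a median of 0.36. GARS, for glycine, had 309.7, 325 and 346 CPM in treated and 170.2, 180.0 and 199 CPM in DMSO cells (log2 fold change 0.85, SE 0.06, adjusted p = 1.9e-12). AARS, for alanine, had 297, 308 and 323 CPM in treated and 175, 189 and 208 CPM in DMSO cells (log2 fold change 0.71, SE 0.05, adjusted p = 2.6e-12), and IARS, for isoleucine, rose by 0.50. The 5 that fell were FARSA, FARSB, KARS, QARS and VARS, between -0.18 and -0.08. Of 17 mitochondrial synthetases, none passed as higher and 6 fell, with a median of -0.08, IARS2 the lowest at -0.38. For example, IARS stood at 0.50 and its mitochondrial counterpart IARS2 at -0.38.

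Brakes of mTORC1, the kinase complex that senses amino acids, and secreted stress hormones were also higher. Of 13 tested, 7 rose and none passed as lower, with a median of 0.29. SESN2, a leucine-binding inhibitor of mTORC1 signalling, had 29.4, 35.6 and 37.3 CPM in treated and 12.7, 14.4 and 15.7 CPM in DMSO cells (log2 fold change 1.29, SE 0.09, adjusted p = 3.6e-12). DDIT4 (REDD1), which acts through TSC, had 25.8, 27.7 and 28.8 CPM in treated and 8.50, 8.91 and 10.6 CPM in DMSO cells (log2 fold change 1.58, SE 0.12, adjusted p = 4.0e-11), although 41.2% of its exonic bases lie in exons of its antisense gene DDIT4-AS1. SESN3, a related sestrin, was at -0.16 and did not pass. Among the secreted factors, ADM2, a peptide of the calcitonin family, had 21.2, 22.4 and 25.4 CPM in treated and 4.47, 5.39 and 6.43 CPM in DMSO cells (log2 fold change 2.08, SE 0.09, adjusted p = 1.1e-16). GDF15, the hormone of nausea and weight loss, had 242, 268 and 304 CPM in treated and 96.7, 119 and 135 CPM in DMSO cells (log2 fold change 1.20, SE 0.12, adjusted p = 8.8e-09), and STC2, a glycoprotein hormone, rose 2.24-fold.

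**Figure D2:**
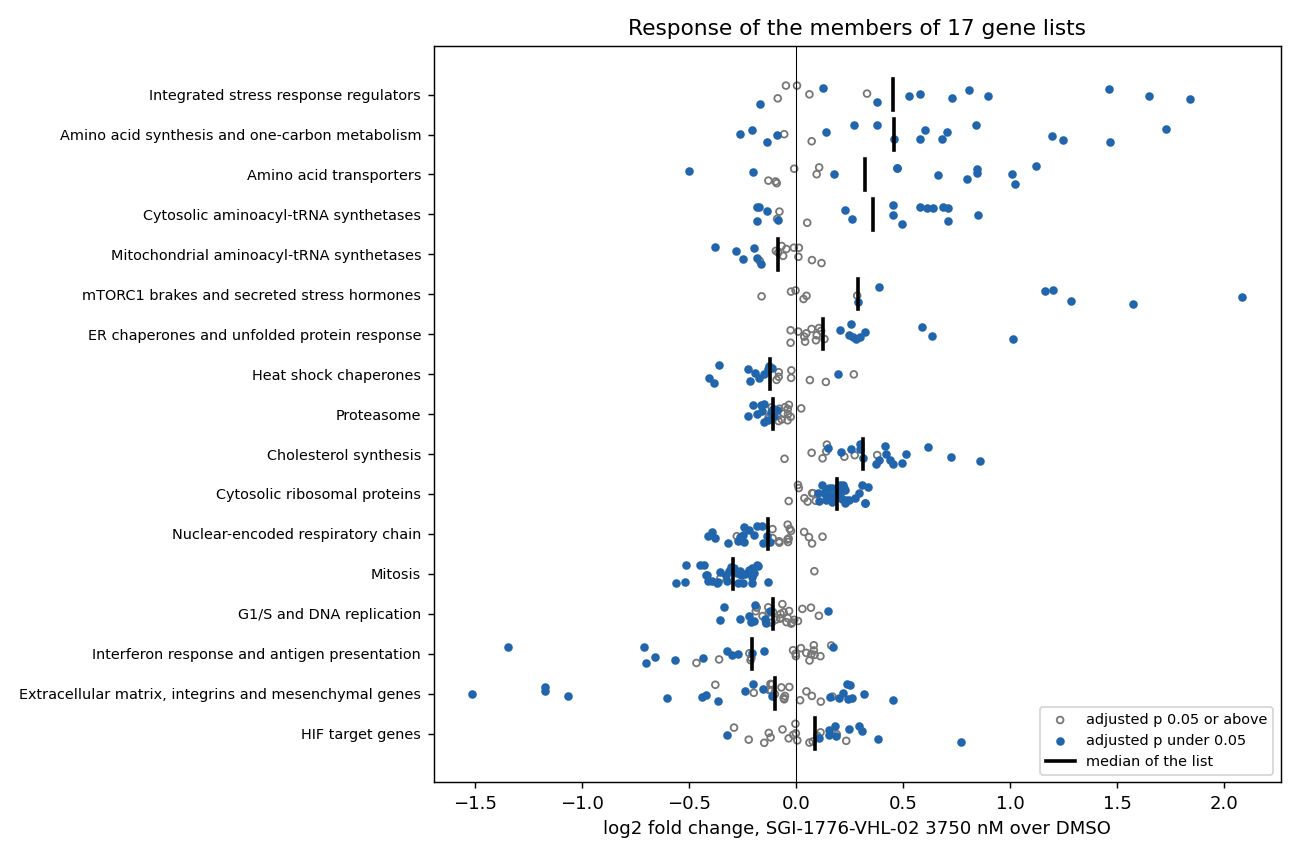
Log2 fold change of SGI-1776-VHL-02 at 3750 nM over DMSO for the tested members of 17 gene lists. Filled points passed an adjusted p of 0.05, open points did not, and the black bar is the list's median, at 0.46 for amino acid synthesis and -0.29 for mitosis.

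The plot of list members shows the spread behind each median. The lists of stress regulators, amino acid synthesis and transporters reached above 1 with a tail of members near or below 0. Mitosis and ribosomal proteins formed narrow groups on opposite sides of 0. The interferon and extracellular matrix lists had their extreme members on the lower side.

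Protein quality control moved in both directions. Of 22 ER chaperones and unfolded protein response genes, 10 rose and none passed as lower, with a median of 0.13. DNAJB9, an ER co-chaperone and target of IRE1 and XBP1, had 23.2, 26.6 and 31.0 CPM in treated and 12.3, 12.9 and 14.9 CPM in DMSO cells (log2 fold change 1.02, SE 0.10, adjusted p = 6.3e-09). HERPUD1, of ER-associated degradation, rose by 0.63, ERN1 (IRE1) by 0.59 and XBP1 by 0.32. HSPA5 (BiP), the main ER chaperone, had 783, 809 and 920.3 CPM in treated and 698, 826 and 936 CPM in DMSO cells and did not pass the test (log2 fold change 0.01, SE 0.07, adjusted p = 0.94). Of 20 heat shock chaperones and their regulators, which include the mitochondrial HSPD1 and HSPE1, 1 rose and 11 fell, with a median of -0.12. HSPD1, the mitochondrial chaperonin, had 579, 610.1 and 629 CPM in treated and 741, 785 and 834 CPM in DMSO cells (log2 fold change -0.36, SE 0.03, adjusted p = 5.1e-10), and BAG3, a co-chaperone of HSP70, fell with -0.38. The 1 that rose, DNAJB4, was at 0.20 and did not pass without any 1 of the DMSO libraries other than the first of Rep 2, or of the treated libraries of Rep 2, at 0.15 to 0.20.

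Of 31 subunits of the proteasome, to which a PROTAC sends its target, none passed as higher and 12 fell, with a median of -0.10. With Rep as a block 19 fell, and in the summed counts 10 fell with that block and none without it. PSMD2 had the lowest value, with 737, 758 and 784 CPM in treated and 841, 889 and 933 CPM in DMSO cells (log2 fold change -0.22, SE 0.04, adjusted p = 3.6e-05). Of 26 autophagy genes, 9 rose and 1 fell. SQSTM1 (p62) and OPTN, both cargo receptors, rose by 0.62 and 0.52, and ATG2A, a lipid transfer protein of the forming autophagosome, fell with -0.19. Of 34 lysosomal genes, 11 rose and 1 fell. TPP1, a peptidase, rose by 0.51 and NPC1, the cholesterol exporter, by 0.49. CTSZ, a cathepsin, fell with -0.10, and with -0.073 without the first DMSO library of Rep 2, which did not pass.

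Nearly all genes of mitosis fell. Of 36 tested, none passed as higher and 34 fell, with a median of -0.29, against 10.3% of all genes lower. KIF20A, a kinesin of cytokinesis, had 54.8, 55.2 and 58.2 CPM in treated and 80.7, 81.8 and 84.3 CPM in DMSO cells (log2 fold change -0.56, SE 0.03, adjusted p = 1.1e-14). PLK1 had 79.6, 83.5 and 87.9 CPM in treated and 116, 119.9 and 124 CPM in DMSO cells (log2 fold change -0.52, SE 0.04, adjusted p = 1.7e-12). CCNB1, the cyclin of mitotic entry, had 106, 109.8 and 117 CPM in treated and 137, 145 and 155 CPM in DMSO cells (log2 fold change -0.39, SE 0.04, adjusted p = 1.3e-08). The ranges did not overlap in 29 of the 36, these 3 genes among them, against 2137 of all 17499 genes tested, or 12.2%. CENPE, a centromere motor, fell with -0.51, the kinase AURKA with -0.45 and the checkpoint target CDC20 with -0.42. The 2 that did not pass were CDC25B, a CDK-activating phosphatase, at 0.09 (adjusted p = 0.28, 0.024 under a block by Rep, 0.091 in the summed counts with that block), and PRC1, a spindle midzone protein, at -0.35, of whose exonic bases 58.4% lie in exons of other genes. The list's median was -0.27 in Rep 1 and -0.30 in Rep 2. In the fit of summed counts without Rep as a block 11 of the 36 fell, against 0.909% of all genes.

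Genes of G1/S and DNA replication gave smaller values. Of 35, 1 rose and 10 fell, with a median of -0.11. With Rep as a block 2 rose and 15 fell, and in the summed counts with that block 1 rose and 10 fell. TK1, thymidine kinase, had 238, 256 and 279 CPM in treated and 304, 327 and 355 CPM in DMSO cells (log2 fold change -0.35, SE 0.05, adjusted p = 1.6e-06). TYMS, thymidylate synthase, was at -0.34, with 46.6% of its exonic bases in exons of ENOSF1. CCND1, cyclin D1, was the 1 that rose, at 0.15, with overlapping ranges, while CCND3 fell with -0.26. CCND1 did not pass without any 1 of the DMSO libraries of Rep 1, the second treated library of Rep 1 or any 1 of the treated libraries of Rep 2, at 0.11 to 0.15. Of 7 CDK inhibitors, 3 rose and 2 fell. CDKN1A (p21) had 32.6, 35.2 and 38.4 CPM in treated and 20.4, 24.5 and 28.2 CPM in DMSO cells (log2 fold change 0.55, SE 0.12, adjusted p = 8.1e-04), CDKN2B (p15) rose by 0.55 and CDKN2A by 0.25. CDKN2C and CDKN2D fell with -0.31 and -0.28. CDKN1B (p27), a substrate of PIM kinases, had 28.7, 30.7 and 32.2 CPM in treated and 28.1, 29.9 and 31.1 CPM in DMSO cells, and the 95% interval of its log2 fold change was -0.06 to 0.11.

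Cytosolic ribosomal proteins rose by small amounts. Of 40, 32 rose and none passed as lower, with a median of 0.19 and a range of -0.03 to 0.34. RPS18 had 599, 649.8 and 686 CPM in treated and 497, 512 and 537 CPM in DMSO cells (log2 fold change 0.34, SE 0.04, adjusted p = 1.7e-08). In the fit of summed counts without Rep as a block 4 of the 40 rose, against 1.43% of all genes. Factors that build ribosomes did not follow: of 31 MYC and ribosome biogenesis genes, 3 rose and 10 fell, with a median of -0.09. MYC rose 1.098-fold (log2 fold change 0.13, SE 0.04, adjusted p = 0.012), with overlapping ranges. It did not pass without the first or second DMSO library of Rep 1, at 0.12 and 0.11, nor without the first or the third treated library of Rep 2, at 0.11 and 0.098. MXD1, an antagonist of MYC, rose by 0.33, and BOP1 and SRM, a ribosome assembly factor and spermidine synthase, fell with -0.31 and -0.27.

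Of 33 nuclear-encoded subunits of the respiratory chain, none passed as higher and 16 fell, with a median of -0.13. In the summed counts 15 passed as lower with Rep as a block and none without it. ATP5F1A, of ATP synthase, had 377, 407 and 433 CPM in treated and 499, 539 and 578 CPM in DMSO cells (log2 fold change -0.41, SE 0.05, adjusted p = 2.0e-07). NDUFS1, of complex I, fell with -0.39 and SDHA, of complex II, with -0.31. None of the 13 mitochondrially encoded mRNAs passed the test in the fit of 30 libraries, in which 1 DMSO library held 0.368% mitochondrial counts, and 3 rose when counts were summed with Rep as a block.

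Sterol synthesis rose. Of 25 cholesterol synthesis genes, 17 rose and none passed as lower, with a median of 0.31, and 23 rose with Rep as a block. INSIG1, the sterol sensor that retains SREBP in the ER, had 78.9, 108 and 133 CPM in treated and 45.8, 66.3 and 85.9 CPM in DMSO cells (log2 fold change 0.72, SE 0.20, adjusted p = 0.0081). The ranges overlapped across Reps but not within them: Rep 1 held 85.6, 78.9 and 82.0 CPM in treated and 56.8, 45.8 and 47.5 CPM in DMSO libraries, and Rep 2 held 131, 133 and 131 and 85.9, 76.5 and 75.7 CPM. MSMO1, a sterol methyl oxidase of the pathway, rose by 0.62 and STARD4, a sterol carrier, by 0.52. In the fit of summed counts without Rep as a block 1 of the 25 rose, against 1.43% of all genes. Of 14 fatty acid synthesis genes, 7 rose and 1 fell, or 11 and 1 with Rep as a block. ACACA, acetyl-CoA carboxylase, rose by 0.48 and ELOVL6, a fatty acid elongase, by 0.39, while ELOVL5, which elongates polyunsaturated chains, fell with -0.17. ELOVL5 was at -0.14 without the first DMSO library of Rep 2 and at -0.16 without the third treated library of Rep 1, and then did not pass.

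Oxidant and metal response genes rose more often than they fell. Of 27 NRF2 target and iron genes, 6 rose and 3 fell, or 11 and 5 with Rep as a block and 9 and 3 in the summed counts with that block. Of all genes tested, 11.5% were higher and 10.3% lower, or 16.1% and 14.1% with Rep as a block, so the falls lay near the general share. HMOX1, haem oxygenase, had 19.97, 22.1 and 23.3 CPM in treated and 9.90, 11.2 and 12.3 CPM in DMSO cells (log2 fold change 0.95, SE 0.06, adjusted p = 8.4e-13). NQO1, a standard NRF2 target, was at -0.01 and did not pass. NFE2L2 (NRF2) had 71.1, 77.8 and 78.6 CPM in treated and 67.0, 72.0 and 76.8 CPM in DMSO cells (log2 fold change 0.09, SE 0.05, adjusted p = 0.26), and under the block by Rep it did pass (adjusted p = 0.046), though not in the summed counts with that block (adjusted p = 0.21). AKR1B10, an aldo-keto reductase, fell with -0.60, and TKT, transketolase of the pentose phosphate pathway, with -0.15. FTL, the ferritin light chain, rose by 0.37. Of 5 metallothionein and zinc exporter genes, 3 rose, among them MT1X by 0.55 and MT2A by 0.33. Among 8 targets of the aryl hydrocarbon receptor, 3 rose and 1 fell. The 1 that fell was ALDH3A1, an aldehyde dehydrogenase, at -0.68.

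Most of the interferon genes that passed were lower, and most of the inflammatory genes that passed were higher. Of 29 interferon response and antigen presentation genes, 1 rose and 11 fell, with a median of -0.20. GBP4, a guanylate-binding protein, had 2.64, 3.23 and 4.20 CPM in treated and 7.21, 8.66 and 9.22 CPM in DMSO cells (log2 fold change -1.34, SE 0.13, adjusted p = 3.2e-09). GBP1 and GBP2 fell with -0.71 and -0.70, NLRC5, the activator of MHC class I genes, with -0.66, and the immunoproteasome subunit PSMB9 with -0.56. The median was -0.20 in Rep 1 and -0.02 in Rep 2. Of 23 NF-kB targets, cytokines and chemokines, 6 rose and 1 fell, or 9 and 4 with Rep as a block and 8 and 2 in the summed counts with that block. LCN2, an iron-scavenging lipocalin, had 111, 119 and 132 CPM in treated and 52.1, 63.0 and 74.8 CPM in DMSO cells (log2 fold change 0.93, SE 0.08, adjusted p = 2.8e-10). IL33 and IL32, both cytokines, rose by 0.87 and 0.81. CXCL1, a neutrophil chemokine, fell with -0.62. This list's median was 0.45 in Rep 1 and -0.07 in Rep 2. The response of 7 of its members differed between Reps, as it did for 45 genes, or 0.257%, of all tested.

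Matrix genes included several of the lowest values. Of 39 genes of extracellular matrix, integrins and mesenchymal state, 9 rose and 12 fell, with a median of -0.10. SPARC, a collagen-binding matricellular protein, had 15.9, 17.02 and 21.5 CPM in treated and 40.3, 53.6 and 59.6 CPM in DMSO cells (log2 fold change -1.51, SE 0.13, adjusted p = 1.9e-10). MMP13, a collagenase, had 9.79, 11.6 and 15.2 CPM in treated and 24.8, 28.2 and 29.4 CPM in DMSO cells (log2 fold change -1.17, SE 0.12, adjusted p = 1.2e-08). CTGF, a target of YAP and TGF-beta, had 31.5, 36.5 and 39.3 CPM in treated and 67.5, 76.1 and 82.3 CPM in DMSO cells (log2 fold change -1.07, SE 0.08, adjusted p = 2.6e-11). In none of them did the groups overlap. TGFBI fell with -1.17 from a low level, 1.32 ± 0.303 CPM in DMSO cells. The basement membrane collagens COL4A1 and COL4A2 fell with -0.42 and -0.37, whereas the laminin chain LAMA3 and the integrin ITGB4, of epithelial adhesion, rose by 0.24 and 0.22. The mesenchymal filament VIM fell with -0.11.

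Growth factor and survival genes moved in small numbers. Of 13 EGF family ligands and receptors, 6 rose and none passed as lower. With Rep as a block 7 rose and 1 fell, and in the summed counts with that block 5 rose and none fell. EGFR had 234, 245 and 275 CPM in treated and 191, 211 and 236 CPM in DMSO cells (log2 fold change 0.24, SE 0.06, adjusted p = 0.0051), and ERRFI1, a feedback inhibitor of EGFR, rose by 0.64. Of 22 MAPK feedback and immediate early genes, 6 rose and 4 fell, with SPRY2 at 0.40 and SPRY4 at -0.48, both feedback inhibitors. Of 16 BCL2 family genes, 4 rose and 1 fell. The rising members PMAIP1 (NOXA), BIK, BBC3 (PUMA) and BMF are death-promoting BH3-only proteins, at 0.65, 0.63, 0.60 and 0.24. BMF was at 0.18 without the second treated library of Rep 2 and then did not pass. BCL2, the survival gene, fell with -0.42. MCL1, another survival gene, was at 0.14 and did not pass without Rep as a block (adjusted p = 0.11), and passed with it (adjusted p = 2.2e-06). PC3 cells are known to lack functional p53. Of 24 p53 target genes, 7 rose and 1 fell, with a median of 0.05. Those that rose included SESN2, GDF15, BBC3, CDKN1A, PHLDA3 and GADD45A, and BTG2, an antiproliferative gene, was the 1 that fell, at -0.40. MDM2, the p53 ubiquitin ligase, was at -0.11 and did not pass. Of 27 FOXO factors and targets, 10 rose and 1 fell, with a median of 0.06, KLHL24 the highest at 0.52 and IGF1R, the receptor of insulin-like growth factor, the 1 that fell, at -0.18. With Rep as a block 13 of the 27 rose and 2 fell, and in the summed counts with that block 11 rose and 2 fell.

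Outside these lists, the highest values among protein-coding genes included S100P, a calcium-binding protein of epithelial tumours, with 20.1, 21.8 and 26.9 CPM in treated and 5.18, 5.95 and 6.97 CPM in DMSO cells (log2 fold change 1.91, SE 0.09, adjusted p = 1.0e-15). PI3 (elafin), an elastase inhibitor, had 213, 247 and 285 CPM in treated and 66.1, 101 and 138 CPM in DMSO cells (log2 fold change 1.30, SE 0.18, adjusted p = 3.0e-06). FER1L6, of the ferlin family, rose 2.79-fold. The lowest values included PPP1R1B (DARPP-32), a phosphatase-1 inhibitor known from dopamine signalling, with 3.17, 4.32 and 4.82 CPM in treated and 12.2, 16.5 and 17.7 CPM in DMSO cells (log2 fold change -1.91, SE 0.10, adjusted p = 4.3e-15). DHRS2, a short-chain dehydrogenase, had 1.87, 2.57 and 3.04 CPM in treated and 6.62, 7.87 and 9.03 CPM in DMSO cells (log2 fold change -1.60, SE 0.10, adjusted p = 1.4e-13). COL2A1, the cartilage collagen, fell to 0.427 of the DMSO level, LGR5, an R-spondin receptor, to 0.503, and ID3, a target of BMP signalling, to 0.507. CADPS2 and FCGR2A fell to 0.503 and 0.517. In each of these 10 genes the groups did not overlap.

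A pair of genes in the same ranking rested on single libraries or on near-identical copies. MAGED4, which has a near-identical copy, had 1.52, 6.67 and 27.1 CPM in treated and 1.25, 2.02 and 10.3 CPM in DMSO cells, with overlap. Its log2 fold change was 0.15 in Rep 1 and 3.12 in Rep 2, and with all libraries 1.66. It did not pass without any 1 of the DMSO libraries other than the first of Rep 1, at 1.49 to 1.56, nor without the second or the third treated library of Rep 2, at 1.12 and 1.41. SERF1B, a copy of SERF1A, had 0.628, 1.94 and 3.17 CPM in treated and 2.88, 4.22 and 18.2 CPM in DMSO cells, also with overlap (log2 fold change -1.91, SE 0.42, adjusted p = 0.0011). Both values are uncertain.

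The degrader was next set against SGI-1776, the inhibitor from which its name derives, at the same 3750 nM and 48 h. This was the 1 pair of compounds compared. The difference takes no DMSO levels, although the DMSO libraries entered the model that set the filter, the scaling and the shared spread. SGI-1776-VHL-02 differed from SGI-1776 in 5451 genes (31.2%), higher in 3080 (17.6%) and lower in 2371 (13.5%). Cytosolic aminoacyl-tRNA synthetases were higher under the degrader in 18 of 20 and lower in 1, with a median difference of 0.47 on the log2 scale. Amino acid synthesis genes were higher in 14 of 19 and lower in 3, with a median of 0.49. Stress regulators were higher in 9 of 16 and lower in none (median 0.19). Amino acid transporters were higher in 7 of 18 and lower in 5 (0.07), and mTORC1 brakes and stress hormones higher in 5 of 13 and lower in 2 (0.17). Against DMSO, SGI-1776 itself raised 1 of the 20 synthetases and lowered 10 (median -0.12), where 17.2% of all genes were higher and 18.4% lower. It raised 3 of the 19 synthesis genes and lowered 4 (0.03). Of the 16 stress regulators it raised 7 and lowered 3 (0.13). It raised 8 of the 18 transporters and lowered 1 (0.10). It raised 8 of the 13 brakes and hormones and lowered none (0.38). CHAC1 averaged 56.0 ± 2.38 CPM under SGI-1776-VHL-02 and 19.3 ± 2.94 CPM under SGI-1776 (SD, n = 6 each; log2 difference 1.53). ADM2 averaged 23.0 ± 1.85 CPM and 7.14 ± 0.453 CPM in the same order (1.69), and CBS 12.9 ± 3.51 CPM and 4.74 ± 1.41 CPM (1.44).

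Of the stress genes, GDF15 and DDIT3 did not pass between the compounds: the 95% interval of the log2 difference was -0.28 to 0.21 for GDF15 and -0.01 to 0.33 for DDIT3. G1/S genes were higher under SGI-1776-VHL-02 than under SGI-1776 in 31 of 35 and mitotic genes in 21 of 36, and none passed as lower in either list. SGI-1776 itself, against the same DMSO libraries, lowered 33 of 35 G1/S genes, with a median log2 fold change of -0.35, and 34 of 36 mitotic genes, with a median of -0.45, where 18.4% of all genes were lower. Between the compounds, FOXO factors and targets went the other way from G1/S genes. Under SGI-1776-VHL-02 they were higher than under SGI-1776 in 2 of 27 and lower in 20, with a median difference of -0.34. Against DMSO, SGI-1776 raised 21 of these 27 and lowered 2, with a median of 0.38, where 17.2% of all genes were higher. Cholesterol synthesis genes were higher under the degrader than under SGI-1776 in none and lower in 6 of 25. Lysosomal genes were higher in 4 and lower in 16 of 34. Against DMSO, SGI-1776 raised 24 of the 25 cholesterol genes and lowered none, with a median of 0.56. It raised 20 of the 34 lysosomal genes and lowered 3, with a median of 0.23. Interferon genes were higher under the degrader than under SGI-1776 in 1 and lower in 12 of 29. Against DMSO, SGI-1776 raised 10 of them and lowered 4, with a median of 0.16. SOCS2 averaged 19.8 ± 2.19 CPM under SGI-1776-VHL-02 and 8.57 ± 0.565 CPM under SGI-1776 (1.20). PIM1 averaged 41.1 ± 3.06 CPM and 44.2 ± 1.46 CPM, with a 95% interval of the log2 difference from -0.20 to -0.01. That difference did not pass the test without Rep as a block (adjusted p = 0.071), and passed with it (adjusted p = 0.035), though not in the summed counts with that block (adjusted p = 0.16).

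PPP1R1B had the lowest difference of the named genes, with 4.20 ± 0.586 CPM under SGI-1776-VHL-02 and 22.2 ± 1.15 CPM under SGI-1776 (-2.40). COL2A1, SPARC, TCN1, TSPAN8, FAM198B, LGR5 and GBP4 followed, between -2.11 and -1.57. Higher under the degrader than under SGI-1776 were FAM83A, PI3, KRT17, AOX1 and IL32, between 1.51 and 1.34. Under SGI-1776 against DMSO, FAM83A, AOX1 and IL32 fell, with -1.08, -0.68 and -0.53. PI3 and KRT17, at -0.13 and -0.14 there, did not pass without Rep as a block. Under the degrader against DMSO, FAM83A was at 0.43. It did not pass without Rep as a block (adjusted p = 0.27), and passed with it (adjusted p = 0.0016). AOX1, aldehyde oxidase, averaged 48.0 ± 2.83 CPM under SGI-1776-VHL-02 and 18.8 ± 1.74 CPM under SGI-1776. KRT17, a basal keratin, averaged 5.52 ± 0.731 CPM and 2.12 ± 0.792 CPM in the same order. VHL itself averaged 116 ± 4.37 CPM and 104 ± 4.46 CPM (log2 difference 0.16, 95% interval 0.08 to 0.24).

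**Figure D3:**
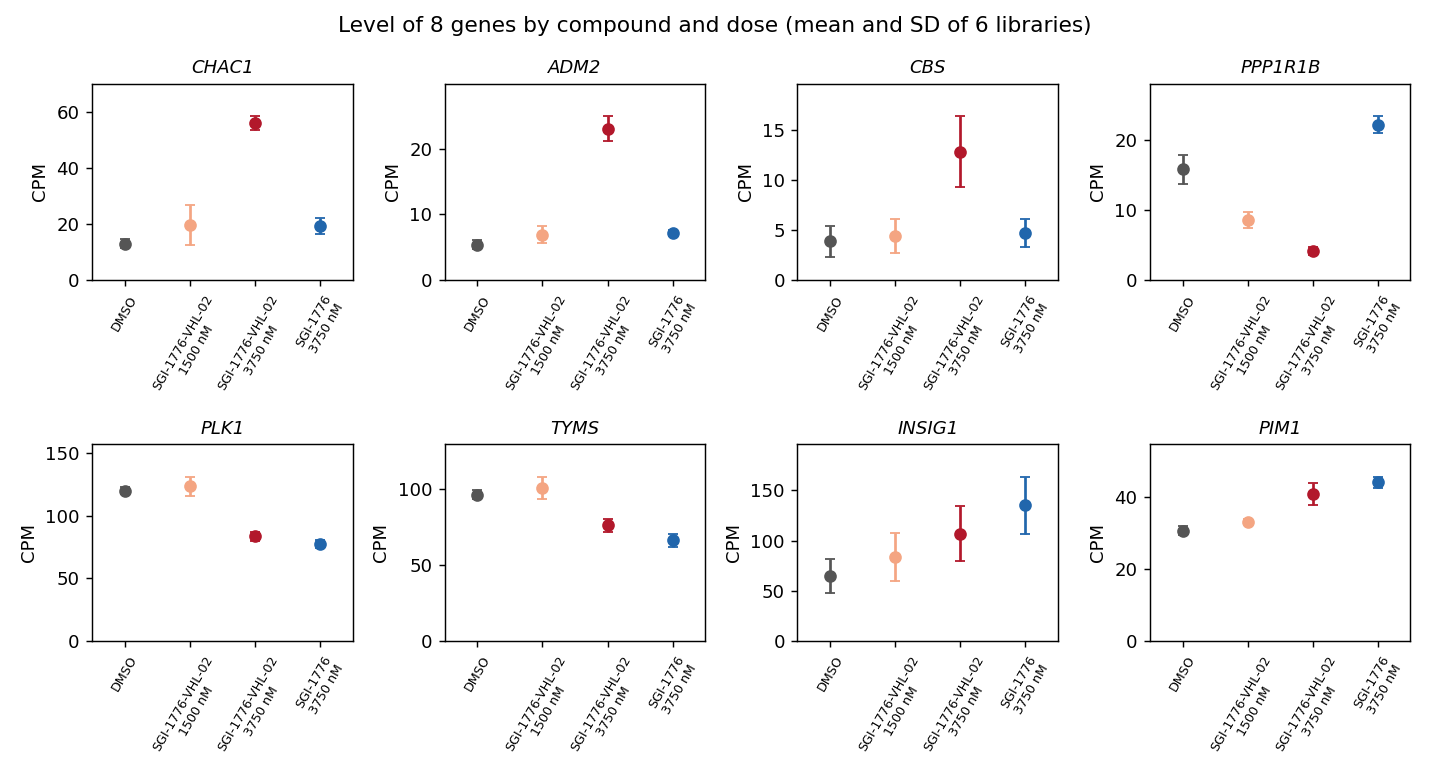
Mean CPM of 8 genes, with bars for the SD of 6 libraries, in DMSO, SGI-1776-VHL-02 at 1500 and 3750 nM, and SGI-1776 at 3750 nM, on axes that start at 0. CHAC1, ADM2 and CBS stand apart at 3750 nM of SGI-1776-VHL-02, and PPP1R1B is lower at both doses of it and higher under SGI-1776.

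The plot by compound and dose also shows the step between both doses of the degrader. At 1500 nM, 336 genes (1.92%) differed from DMSO, 187 (1.07%) higher and 149 (0.851%) lower, and 1649 (9.42%) differed with Rep as a block. In the summed counts 844 (4.82%) passed with Rep as a block and 0 (0.0%) without it, where 677 had an unadjusted p under 0.05. The direct comparison of 3750 nM with 1500 nM called 3320 genes (19.0%), 1616 (9.23%) higher and 1704 (9.74%) lower, or 2596 (14.8%) higher and 2516 (14.4%) lower with Rep as a block. Mitotic genes were lower at 3750 nM than at 1500 nM in 34 of 36, with a median difference of -0.43. At 1500 nM against DMSO, 4 of these 36 were higher and none passed as lower, with a median of 0.12. KIF20A averaged 55.7 ± 1.26 CPM at 3750 nM and 85.2 ± 2.94 CPM at 1500 nM (-0.61 on the log2 scale). Stress regulators were higher in 11 of 16 and lower in 1, with a median of 0.45. NUPR1 averaged 63.0 ± 3.69 CPM at 3750 nM and 22.7 ± 5.30 CPM at 1500 nM (1.47), and ADM2 23.0 ± 1.85 CPM and 6.95 ± 1.35 CPM (1.72). MAGED4 stood at 1.67, and did not pass without any 1 of the 1500 nM libraries other than the first of Rep 1, nor without the second or the third 3750 nM library of Rep 2, at 1.14 to 1.61. S100P and CBS were at 1.54 and 1.53.

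Lower at the higher dose were PPP1R1B, DHRS2, KRT4 and SPARC, at -1.03, -1.04, -0.84 and -0.75. PPP1R1B averaged 15.8 ± 2.06 CPM in DMSO, 8.61 ± 1.14 CPM at 1500 nM and 4.20 ± 0.586 CPM at 3750 nM. SMIM11A, with a near-identical copy, also ranked here, but its values were uncertain. Interferon genes had already fallen in 6 of 29 at 1500 nM against DMSO, and differed between doses in 3 higher and 5 lower. PIM1 averaged 41.1 ± 3.06 CPM at 3750 nM and 33.3 ± 0.814 CPM at 1500 nM (0.30), and VHL 116 ± 4.37 CPM and 104 ± 4.29 CPM (0.17).

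The responses of the 2 Reps were compared gene by gene, as the Rep 2 response less the Rep 1 response. Of 17499 genes, 45 (0.257%) differed, 11 (0.0629%) with a higher and 34 (0.194%) with a lower response in Rep 2. CXCL8, the neutrophil chemokine interleukin-8, held 80.2, 80.0 and 87.4 CPM in treated and 53.2, 48.7 and 49.9 CPM in DMSO libraries of Rep 1, and 59.0, 57.1 and 63.2 CPM in treated and 111, 106 and 96.5 CPM in DMSO libraries of Rep 2. Its log2 fold change was 0.70 in Rep 1 and -0.80 in Rep 2 (difference -1.51, adjusted p = 1.7e-12), and with the Reps joined it did not pass (log2 fold change -0.12, SE 0.19, adjusted p = 0.73). CXCL1 was at -0.10 in Rep 1 and -1.01 in Rep 2, and its treated libraries lay between 28.9 and 35.1 CPM in both Reps. ERRFI1 rose in both, at 0.88 and 0.41, as did CALB1, a calcium-buffering protein, at 0.81 and 0.28. DUSP5, an ERK phosphatase, was at 0.43 and -0.02. DUSP5 did not pass for the joined Reps without Rep as a block (adjusted p = 0.08), and passed with it (adjusted p = 0.0012). The count of 45 was 29 without the first DMSO library of Rep 1 or the third treated library of Rep 1, and 24 without the first treated library of Rep 2.

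**Figure D4:**
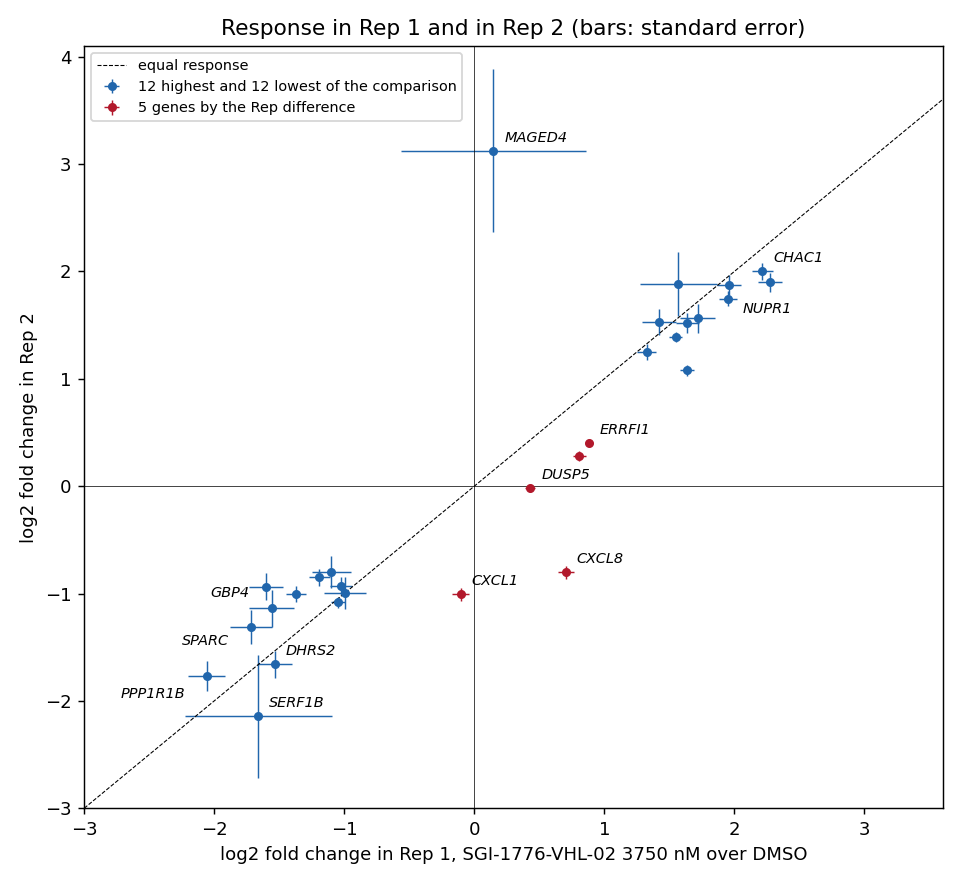
Log2 fold change of SGI-1776-VHL-02 at 3750 nM over DMSO in Rep 1 (horizontal axis) and Rep 2 (vertical axis), with bars for the standard error. The 12 highest and 12 lowest named genes (blue) are furthest from the line of equal response in MAGED4, at 0.15 and 3.12, COL2A1, at -1.60 and -0.94, and PI3, at 1.63 and 1.08. The 5 genes named by the Rep difference (red) lie below the line.

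In the plot of the responses by Rep, the 24 blue genes have the same sign in both Reps because the naming rule required it. Their sign is therefore no test of agreement between Reps. CHAC1 was at 2.22 and 2.00, NUPR1 at 1.95 and 1.75, SPARC at -1.72 and -1.31, and PPP1R1B at -2.06 and -1.77. Of the red genes, CXCL8 lies in the quadrant of opposite signs.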

How the data were processed

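Poly(A) RNA of 30 PC3 libraries was sequenced, and the comparison uses the 6 libraries of SGI-1776-VHL-02 at 3750 nM and the 6 DMSO libraries, grouped by their labels. The deposited table holds raw counts per gene made with featureCounts 1.5.0-p3 on GRCh38/hg38, per the submitters' processing notes. No aligner is named in the sources used here. The labels name directional and non-directional library options without saying which was used, so overlapping and antisense genes are uncertain, as are near-identical copies. All 58735 gene identifiers of the table were matched to GENCODE 29, and 20677 of them were at 0 in all libraries. Totals ran from 22520292 to 48968707 counts over the 30 libraries. Without molecular identifiers, counted reads can be copies of 1 molecule, and the errors given are those of the model or the SD over libraries. No pair of libraries of a group agreed within sampling noise, with a lowest chi-square per degree of freedom of 1.95.

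One quasi-likelihood model was fitted with edgeR 4.0.16 in R 4.3.3 (TMM scaling, filterByExpr, 17499 genes tested) over the 5 groups and all 30 libraries, and a gene was called at a Benjamini-Hochberg adjusted p under 0.05. CPM values use the TMM-scaled library size, and RPKM divides it by the gene length in the table. The responses in Rep 1 and Rep 2 and their difference came from 1 model with a term for each group and Rep. The difference between Rep 2 and Rep 1 libraries correlated across genes at 0.588 to 0.745 over the 10 pairs of groups, so the Rep numbers were taken to pair the groups, and block values stand beside a result where they change its call or move its count by over 1.5 times. Alternatives were Rep as a replicate block, counts summed per group and Rep, DESeq2 1.42.0 and its size factors, library size alone, other count filters, the 2 compared groups only, 1 Rep only, and leaving out libraries. The script was also tested on simulated data.

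Genes were named by a rule: PIM1, PIM2, PIM3 and VHL, the 12 protein-coding genes furthest up and down with at least 5 CPM and the same sign in both Reps, the 5 largest called members of each list and up to 2 against its majority, and set numbers for the other comparisons. Genes outside it were chosen after their values were seen. The comparison, the 35 gene lists and the naming rule were chosen with earlier results of these data known. Counts over lists are descriptions beside the share of all genes called. Some genes of these lists are counted but not reported here by name.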

Additional observations from a re-analysis of the deposited data

Results flagged for a closer look

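Over 240 genes and both groups, 480 sets of 6 libraries were searched for a library far from the other 5 by Dixon's criterion at 95% and 19 were found. Chance gives about 1 in 20 such sets, and no library held more than 3 of them. Among the libraries of SGI-1776-VHL-02 at 3750 nM, the first of Rep 2 was highest in LARS2 at 72.1 CPM and in KIF20A at 58.2 CPM. The second of Rep 2 was highest in SLC7A11 at 81.0 CPM and lowest in BBC3 at 2.0 CPM. The third of Rep 2 was highest in SHMT2 at 342 CPM and lowest in VIM at 342 CPM and in LAMA4 at 6.66 CPM. The first of Rep 1 was lowest in NFE2L2 at 71.1 CPM and in SESN2 at 29.4 CPM. The third of Rep 1 was lowest in MXI1 at 21.2 CPM and highest in NLRC5 at 6.02 CPM.

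Among the DMSO libraries, the first of Rep 1 was highest in MAGED4 at 10.3 CPM, where the next was 2.28 CPM, and lowest in AOX1 at 24.4 CPM. The second of Rep 1 was lowest in BCL2 at 3.4 CPM. The third of Rep 1 was highest in SMIM11A at 13.2 CPM, where the next was 1.52 CPM, in LAMA3 at 255 CPM and in COL4A1 at 62.2 CPM. The first of Rep 2, the library with 0.368% mitochondrial counts, was highest in NDRG1 at 377 CPM and in DNAJB9 at 14.9 CPM.

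The response to SGI-1776-VHL-02 at 3750 nM differed between Reps in a direct edgeR test for 5 named genes, as Rep 2 less Rep 1 on the log2 scale. The difference was -1.51 for CXCL8, -0.91 for CXCL1, -0.53 for CALB1, -0.48 for ERRFI1 and -0.45 for DUSP5.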

How the results depend on the processing

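With Rep as a replicate block, SGI-1776-VHL-02 at 3750 nM against DMSO gave 2810 genes higher and 2464 lower, and at 3750 against 1500 nM 2596 higher. All 215 named or list-leading genes called against DMSO kept their call and direction under it, under DESeq2 and with a filter of 1 CPM in 6 libraries. With counts summed per group and Rep, 211 of the 215 passed with the block and 92 without it. The fit without it gave 251 genes higher and 159 lower against DMSO, 723 higher and 678 lower against SGI-1776, and 77 higher and 59 lower against 1500 nM. The other settings kept 183 to 214 of the 215. Without a count filter 154 genes differed between Reps.

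Leaving out 1 library gave 1605 to 2080 genes higher and 1578 to 1895 lower against DMSO, with 5 to 12 of the 215 calls lost. It gave 2370 to 3211 higher and 2054 to 2430 lower against SGI-1776, 1250 to 1616 higher and 1372 to 1968 lower against 1500 nM, and 24 to 55 genes that differed between Reps. Without the first DMSO or the third treated library of Rep 1 these were 29, and without the first treated library of Rep 2 they were 24.

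Signs turned in genes that were not called. In Rep 1 alone HIF1A was at 0.0276, CDKN1B at -0.00585, PIM3 at 0.0513 and CXCL8 at 0.707, of which CXCL8 passed (adjusted p = 1.0e-08). In Rep 2 alone HSPA5 was at -0.0537, PIM2 at 0.0434 and DUSP5 at -0.039. By library size alone HSPA5 was at -0.00538. Without libraries under 0.5% mitochondrial counts HIF1A was at 0.0209, CXCL8 at 0.00383 and NQO1 at 0.000847. Leaving out 1 library gave -0.0412 to 0.0589 for HSPA5, -0.0538 to 0.0311 for HIF1A, -0.00309 to 0.0429 for CDKN1B, -0.237 to 0.0142 for CXCL8 and -0.0324 to 0.0111 for NQO1, and -0.0661 to 0.00600 for GDF15 against SGI-1776. The cause was not tested. Libraries held 22520292 to 48968707 counts, and what depth limits was not tested.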
